A study of Homo sapiens with 10 samples.

Results

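Chromatin at 9 target genes of the transcription factor p53 was described in HCT116 cells: CDKN1A, MDM2, RRM2B, TP53I3, BBC3, BAX, SESN1, GDF15 and FAS. The genes were taken by name, and all 9 were found among 19821 protein-coding genes of RefSeq (GRCh38) on chromosomes 1 to 22 and X. They held 34 of the 57404 peaks in the 4 lists on those chromosomes, counting peaks in the gene or within 1 kb of either end. HCT116 is an established human colorectal carcinoma line, and the samples were labelled WT, with no agent or engineered allele named for them. CUT&Tag tethers a transposase to chromatin through an antibody, so that DNA near the bound protein is cut and tagged. The targets were POLR1A and POLR2A, the catalytic subunits of RNA polymerase I and RNA polymerase II, H3K4me3, a mark of active promoters, and H3K9me3, a mark of heterochromatin. Samples numbered 3 for POLR1A, 3 for POLR2A, 1 for H3K4me3 and 3 for H3K9me3, each made from 100000 to 200000 cells, and each target had 1 peak list.

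p53 is stabilised when DNA is damaged or growth signals are aberrant, and it then binds a repeated decamer near its target genes and raises their transcription. Its targets halt the cell cycle, start apoptosis, help repair DNA, adjust metabolism and feed back on p53 itself. HCT116 cells carry wild-type p53, and several of these genes are known to be transcribed at a basal level without damage. RNA polymerase II transcribes all of them, while RNA polymerase I is known for the ribosomal RNA genes in the nucleolus.

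The H3K4me3 list belongs to the single H3K4me3 sample, and the other 3 lists do not separate replicates, so replicate errors could not be given and no test was made. Fold enrichment is the authors' linear ratio of signal over local background at a peak, and it is compared only within a list. The medians of the whole lists were 5.44 for POLR1A, 5.47 for POLR2A, 9.03 for H3K4me3 and 4.61 for H3K9me3. Read depth is unknown from peak lists, so a missing peak means only that none was called. The cell label was checked with H3K4me3 at gene ends, which was present at 8 of 10 colon epithelium markers, among them EPCAM and KRT8, and absent at VIL1 and LGALS4. The mark was at 0 of 6 leukocyte markers, 1 of 6 fibroblast markers (COL1A1), 3 of 5 neuronal markers (MAP2, SYT1 and TUBB3) and 1 of 4 liver markers (APOA1). Counted the same way, 54.6% of all protein-coding genes had the mark. The neuronal count was near that share, and with so few markers these counts were not tested.

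All 9 genes carried H3K4me3 and 8 carried POLR2A, counting the whole gene and 1 kb on each side. POLR1A was found at 4, namely RRM2B, TP53I3, BBC3 and FAS, and each of these POLR1A peaks overlapped a POLR2A peak and an H3K4me3 peak. H3K9me3 was found beside TP53I3 alone among the 9. GDF15 carried H3K4me3 and no other target. Counted the same way over all protein-coding genes, the shares were 60.5% for H3K4me3, 53.2% for POLR2A, 15.4% for POLR1A and 14.4% for H3K9me3. Among the 11991 protein-coding genes with H3K4me3, 81.3% had POLR2A and 24.1% had POLR1A. With 9 genes chosen when earlier results were known, these counts describe the genes and were not tested.

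**Figure D1:**
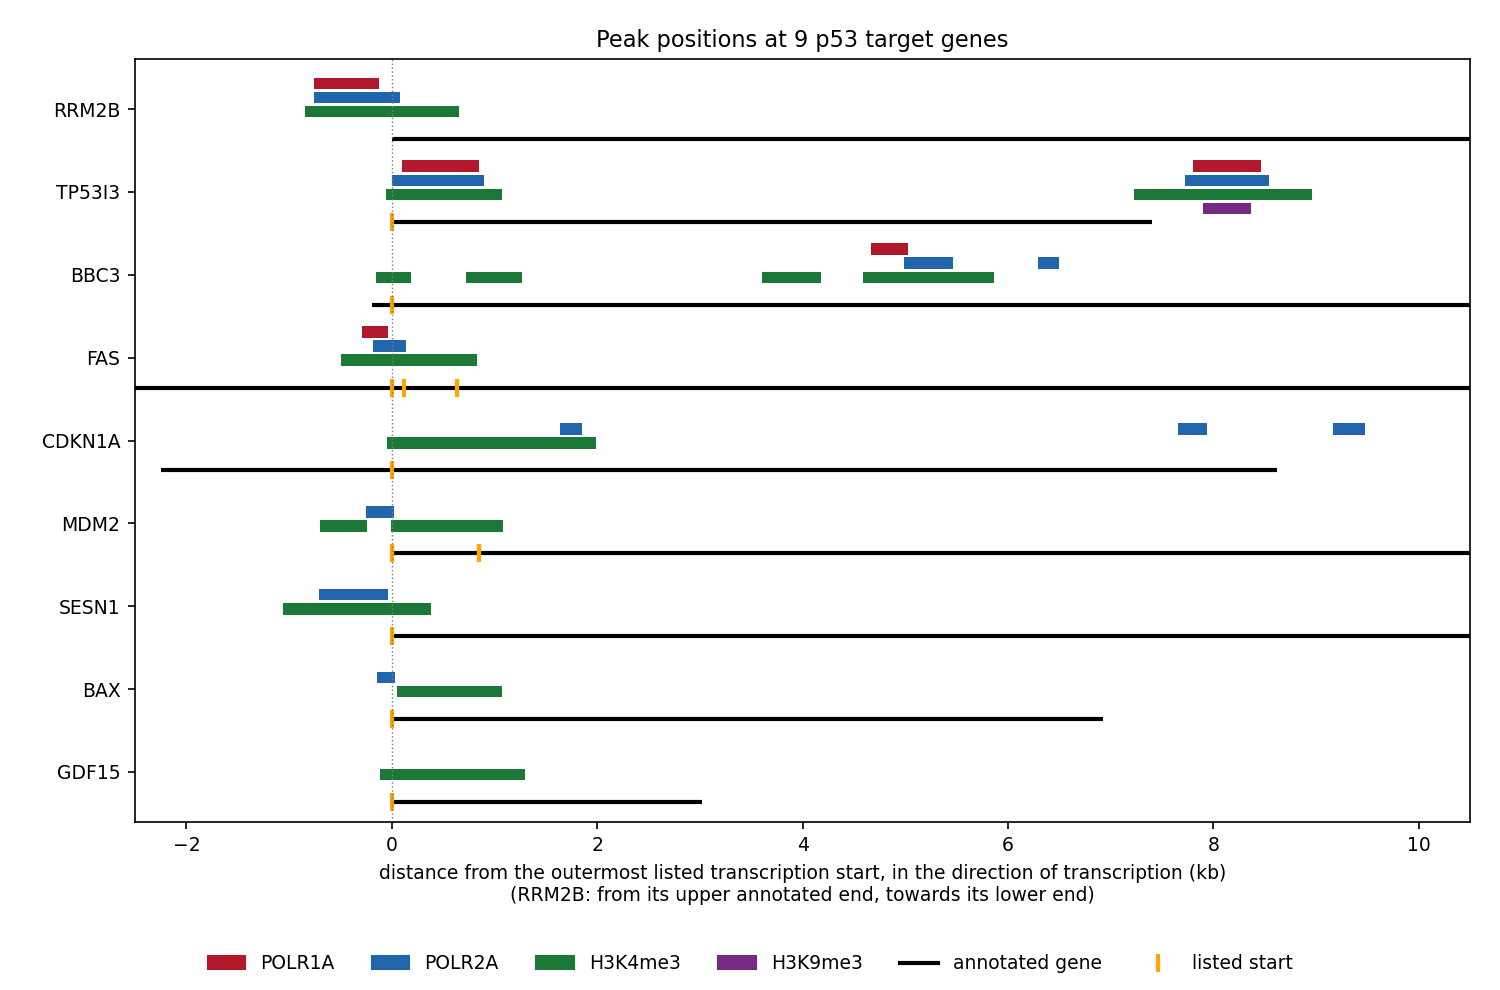
Peak positions of the 4 targets at 9 p53 target genes. The horizontal axis is the distance in kb from the outermost listed transcription start in the direction of transcription, or from the upper annotated end for RRM2B. Coloured bars are peaks, black lines the annotated genes and orange ticks listed starts. A POLR2A peak inside SESN1 and the H3K4me3 peak over its internal starts lie beyond the right edge, as do those starts. POLR1A bars sit beside POLR2A bars at RRM2B, TP53I3, BBC3 and FAS.

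The promoter sequences below show where the peaks lie against the annotated transcription starts. They are RefSeq windows (GRCh38.p14) of 300 bases, 5′ to 3′ in the direction of transcription, with the start at base 251. Of the 9 genes, 8 had such windows, and RRM2B was not matched. FAS is shown because its POLR1A peak covers 216 bases of the window (chr10:88990548-88990847, plus strand), which are in capitals:
FAS: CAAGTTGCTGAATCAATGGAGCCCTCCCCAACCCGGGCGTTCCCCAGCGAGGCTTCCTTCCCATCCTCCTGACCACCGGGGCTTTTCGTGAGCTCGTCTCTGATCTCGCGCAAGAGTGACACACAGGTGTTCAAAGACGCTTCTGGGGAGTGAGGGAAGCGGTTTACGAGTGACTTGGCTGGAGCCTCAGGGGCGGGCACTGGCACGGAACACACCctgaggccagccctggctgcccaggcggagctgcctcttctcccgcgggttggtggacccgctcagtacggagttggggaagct

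For TP53I3 (chr2:24084785-24085084, minus strand), MDM2 (chr12:68807922-68808221, plus strand) and BAX (chr19:48954625-48954924, plus strand), capitals mark bases under a POLR2A peak. They show a peak that lies wholly downstream of the start and 2 that lie mostly upstream of it:
TP53I3: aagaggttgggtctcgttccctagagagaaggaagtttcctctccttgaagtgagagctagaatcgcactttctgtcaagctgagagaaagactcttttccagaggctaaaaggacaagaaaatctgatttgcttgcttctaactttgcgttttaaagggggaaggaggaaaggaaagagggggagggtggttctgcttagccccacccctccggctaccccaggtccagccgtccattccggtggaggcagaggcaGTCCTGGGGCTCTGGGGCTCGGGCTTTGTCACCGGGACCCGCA
MDM2: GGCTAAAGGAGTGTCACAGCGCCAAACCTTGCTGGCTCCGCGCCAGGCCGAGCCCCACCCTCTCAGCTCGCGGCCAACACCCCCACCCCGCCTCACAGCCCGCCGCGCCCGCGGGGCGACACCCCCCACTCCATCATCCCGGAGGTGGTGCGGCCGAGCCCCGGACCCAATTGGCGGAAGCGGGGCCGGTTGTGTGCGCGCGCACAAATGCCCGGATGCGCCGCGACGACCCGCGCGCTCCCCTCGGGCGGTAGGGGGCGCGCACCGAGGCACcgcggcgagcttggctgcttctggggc
BAX: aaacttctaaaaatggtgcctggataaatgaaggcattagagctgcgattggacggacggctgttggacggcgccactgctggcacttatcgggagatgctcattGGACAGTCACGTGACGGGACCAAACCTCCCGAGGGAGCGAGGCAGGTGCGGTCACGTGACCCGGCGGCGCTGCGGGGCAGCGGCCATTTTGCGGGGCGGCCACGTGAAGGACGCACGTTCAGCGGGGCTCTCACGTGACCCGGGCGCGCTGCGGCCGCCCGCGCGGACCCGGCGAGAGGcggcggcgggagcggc

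For CDKN1A (chr6:36678464-36678763, plus strand) and GDF15 (chr19:18385908-18386207, plus strand), no polymerase peak reaches the window, and capitals mark bases under the H3K4me3 peak:
CDKN1A: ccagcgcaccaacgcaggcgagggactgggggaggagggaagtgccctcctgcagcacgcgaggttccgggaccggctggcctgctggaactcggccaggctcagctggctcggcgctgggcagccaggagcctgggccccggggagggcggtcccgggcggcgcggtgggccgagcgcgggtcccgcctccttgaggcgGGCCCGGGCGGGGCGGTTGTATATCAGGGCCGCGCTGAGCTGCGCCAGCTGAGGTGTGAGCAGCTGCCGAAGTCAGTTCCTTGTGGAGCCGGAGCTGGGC
GDF15: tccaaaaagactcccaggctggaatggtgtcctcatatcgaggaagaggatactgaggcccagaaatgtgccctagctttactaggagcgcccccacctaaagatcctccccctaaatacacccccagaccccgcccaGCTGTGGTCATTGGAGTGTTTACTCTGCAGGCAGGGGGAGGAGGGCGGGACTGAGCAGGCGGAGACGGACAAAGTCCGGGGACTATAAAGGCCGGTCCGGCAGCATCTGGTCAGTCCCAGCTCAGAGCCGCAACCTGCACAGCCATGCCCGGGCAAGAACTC

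RRM2B encodes the p53-inducible small subunit of ribonucleotide reductase, which supplies deoxynucleotides for DNA repair, and its peak had the highest POLR1A and POLR2A values of the 9 genes. The POLR1A peak (chr8:102239083-102239716) had a fold enrichment of 12.1 and ranked 119 of 3812. The POLR2A peak (chr8:102238881-102239716) had 16.5 and ranked 800 of 19997. Both polymerase peaks ended at the same base and lay inside the H3K4me3 peak (chr8:102238302-102239810), which had 12.4. The POLR1A peak began 122 bp outside the annotated upper end of RRM2B at 102238961, while the POLR2A peak covered that end. The POLR1A peak therefore lay wholly outside the annotated gene and was counted through the 1 kb window, so it cannot be assigned to RRM2B by position alone. The POLR1A summit was 158 bp from the POLR2A summit and 679 bp from that of H3K4me3. The POLR2A summit, at 102239239, also lay outside the annotated gene.

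TP53I3, known as PIG3 and encoding a quinone oxidoreductase, was the only one of the 9 genes with POLR1A at both ends. At its own transcription start the POLR1A peak (chr2:24083985-24084738) had 6.88 and lay 96 to 849 bp downstream of the start. The POLR2A peak there (chr2:24083936-24084827) had 9.93, and it began 7 bp downstream of the start. The H3K4me3 peak covered the start and, at 17.4, was the highest of the 15 H3K4me3 peaks at the 9 genes. The 3 summits at this start lay within 158 bp of each other. The POLR1A peak thus fell on transcribed sequence, inside both other peaks.

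The stronger POLR1A peak beside TP53I3 (chr2:24076367-24077035) had 10.1, ranked 248 of 3812 and lay 398 bp beyond the other end of the gene. It covers the annotated start of FAM228B at 24076833 and begins 41 bp from that of SF3B6 at 24076326, a spliceosome gene transcribed the other way. POLR2A there had 16.1 and H3K4me3 7.86. This site also held the only H3K9me3 peak at the 9 genes (chr2:24076469-24076933), with 5.32 and a −log10 q of 4.19, lying wholly inside the POLR1A and POLR2A peaks. The value of 10.1 therefore stands at the starts of FAM228B and SF3B6, and the value at the start of TP53I3 is 6.88.

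FAS encodes a death receptor of the tumour necrosis factor receptor family and BBC3 encodes PUMA, a BH3-only protein that triggers mitochondrial apoptosis. Both carried weak POLR1A peaks that were not at the outer ends of the annotated genes. At FAS the POLR1A peak (chr10:88990513-88990763) had 3.61, ranked 3378 of 3812 and had a −log10 q of 1.77. It ended 35 bp upstream of the outermost listed FAS start, and the POLR2A peak, with 5.26, covered that start. The 2 peaks shared 151 bp, and H3K4me3 at 13.5 covered both. A listed start of ACTA2, on the opposite strand, lies 574 bp from the POLR1A peak, and the annotated span of FAS runs on past it.

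At BBC3 the POLR1A peak (chr19:47227643-47228000) had 4.99, ranked 2344 of 3812 and lay 4667 to 5024 bp downstream of the listed start. It shared 41 bp, or 11.5% of its width, with a POLR2A peak of 5.06. A further POLR2A peak of 6.26 lay 6297 to 6502 bp downstream of the start. H3K4me3 formed 4 separate peaks along BBC3, between 3.15 and 5.14, all in the lowest 18% of that list by fold enrichment. The highest of them (chr19:47226800-47228082) held the POLR1A peak and the microRNA genes MIR3190 and MIR3191, while the listed start was covered by a peak of 3.35 with no polymerase peak. Over the whole list, 71.7% of the 3812 POLR1A peaks overlapped POLR2A, and among those the median overlap was 100% of the POLR1A peak and the median summit distance 61 bp. RRM2B and TP53I3 reached that overlap with 100% at each of their 3 POLR1A peaks, against 60.2% at FAS and 11.5% at BBC3.

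**Figure D2:**
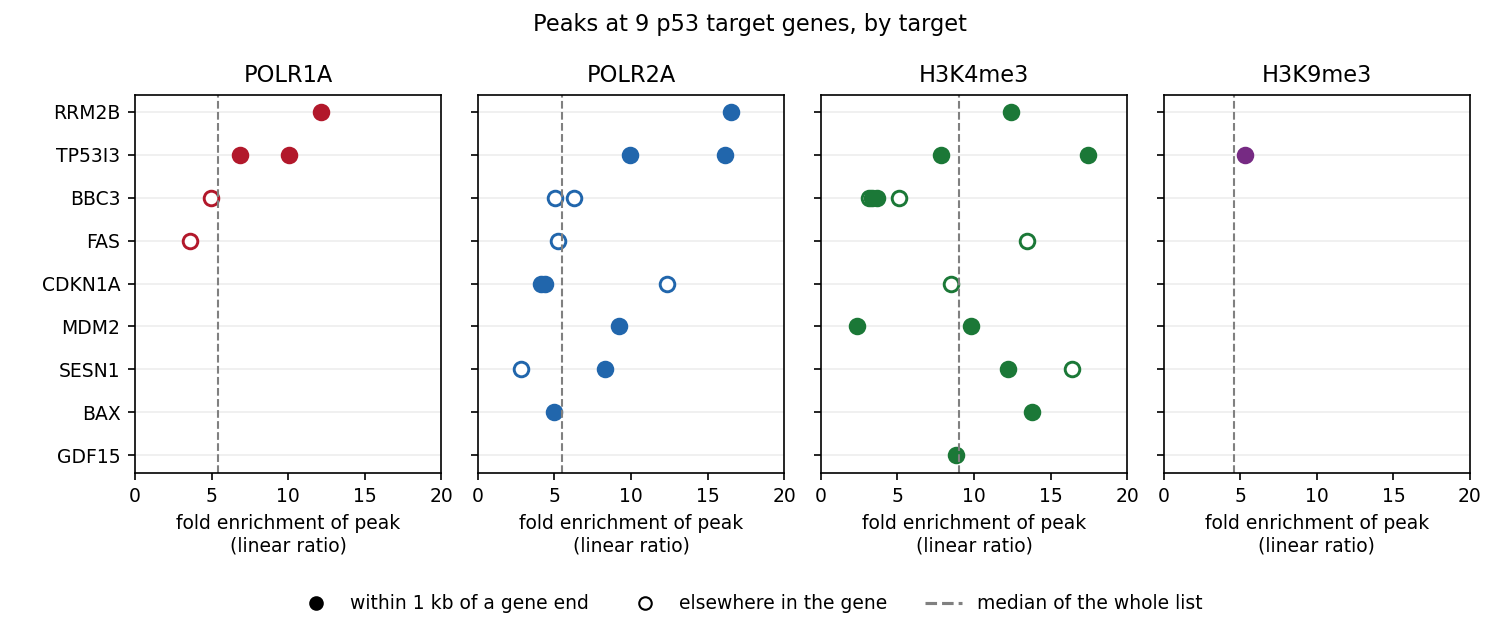
Fold enrichment (linear ratio, horizontal axis) of each peak at 9 p53 target genes (rows), with a panel for each target. Filled points are peaks within 1 kb of a gene end, open points are peaks elsewhere in the gene, and dashed lines are the medians of the whole lists. POLR1A values run from 3.61 at FAS to 12.1 at RRM2B, and 5 genes have none.

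CDKN1A encodes p21, the cyclin-dependent kinase inhibitor through which p53 arrests the cell cycle, and it held POLR2A without POLR1A. Its strongest POLR2A peak (chr6:36680350-36680566) had 12.4, ranked 2221 of 19997 and lay 1636 to 1852 bp downstream of the listed start. H3K4me3 (chr6:36678664-36680701) began 50 bp upstream of the start, ran for 2038 bp, the widest at the 9 genes, and covered this POLR2A peak. A pair of weaker POLR2A peaks, of 4.14 and 4.37, flanked the far end of the gene, 675 bp inside it and 551 bp beyond it. No polymerase peak lay at the listed start of CDKN1A or at that of the neighbouring lncRNA gene DINOL. The nearest POLR1A peak was 198 kb away, at C6orf89.

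MDM2 encodes the ubiquitin ligase that degrades p53, and it is itself induced by p53 from an internal promoter downstream of its constitutive one. Its only POLR2A peak (chr12:68807922-68808194) had 9.24 and lay at the outer start, from 250 bp upstream to 22 bp downstream of it. The internal starts at 68809017 and 68809024 had no polymerase peak. H3K4me3 covered both promoters with a peak of 9.84 (chr12:68808161-68809256), whose summit lay 87 bp upstream of the internal start at 68809017. A second H3K4me3 peak of 2.38 lay upstream, so that the POLR2A peak filled the interval between them and shared 9 and 34 bp with them. The nearest POLR1A peak was 814 kb away, the greatest such distance among the 9 genes.

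SESN1 encodes a sestrin, a stress-induced inhibitor of mTORC1 signalling, and BAX encodes the pore-forming protein of mitochondrial apoptosis. At SESN1 the POLR2A peak (chr6:109094887-109095555) had 8.32 and began 41 bp upstream of the outer start, and it covered the start of the divergent gene CEP57L1 at 109095163. H3K4me3 was higher at the internal starts of SESN1, with 16.4, than at the outer start, with 12.2, and no polymerase peak lay at the internal starts. A POLR2A peak of 2.80 lay far inside the gene. At BAX a POLR2A peak of 4.95 (chr19:48954730-48954908) covered the start, and H3K4me3 of 13.8 began 51 bp downstream of the start, so the peaks did not overlap. Beside both starts POLR2A thus lay on the upstream side or across the start, as at MDM2 and FAS. The summit of the SESN1 peak was 65 bp from the CEP57L1 start and 252 bp from the outer SESN1 start. That peak lay outside the annotated gene and cannot be assigned to SESN1 by position alone.

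GDF15, which encodes a secreted cytokine of the TGF-β superfamily, had H3K4me3 of 8.81 over its start (chr19:18386046-18387452) and no polymerase peak. The nearest POLR2A peak was 5.54 kb away with a value of 5.94, and the nearest POLR1A peak 47.8 kb away. Among the 8 genes without H3K9me3, the nearest H3K9me3 peak was 2.93 kb from FAS, 7.58 kb from BAX and 52.7 kb or more from the others. Among targets with no peak at a gene, the closest peaks left out by the 1 kb limit were that H3K9me3 peak beside FAS and the POLR2A peak beside GDF15.

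Limited to windows of 1 kb around the gene ends, POLR1A was at 2 of the 9 genes (RRM2B and TP53I3), against 11.2% of all protein-coding genes. POLR2A was at 6 of 9, against 41.3%, and H3K4me3 at 7 of 9, against 54.6%. H3K9me3 was at 1 of 9, against 2.7%. Both polymerases met at the same end at 2 of 9 genes, against 10.7%. Of the 6 with POLR2A at an end, 2 also had POLR1A (33.3%), against 26% of the 8192 such protein-coding genes. The annotated spans of CDKN1A and FAS reach far beyond their listed starts, so windows at the ends missed the H3K4me3 peak over the start of CDKN1A and all peaks of FAS. Around listed starts, a measure chosen after the peaks had been seen, H3K4me3 was at 8 of 8 genes (58.5% of protein-coding genes with such starts), POLR2A at 5 of 8 (44%), POLR1A at 2 of 8, namely TP53I3 and FAS (12%), and H3K9me3 at 0 of 8 (2.35%).

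**Figure D3:**
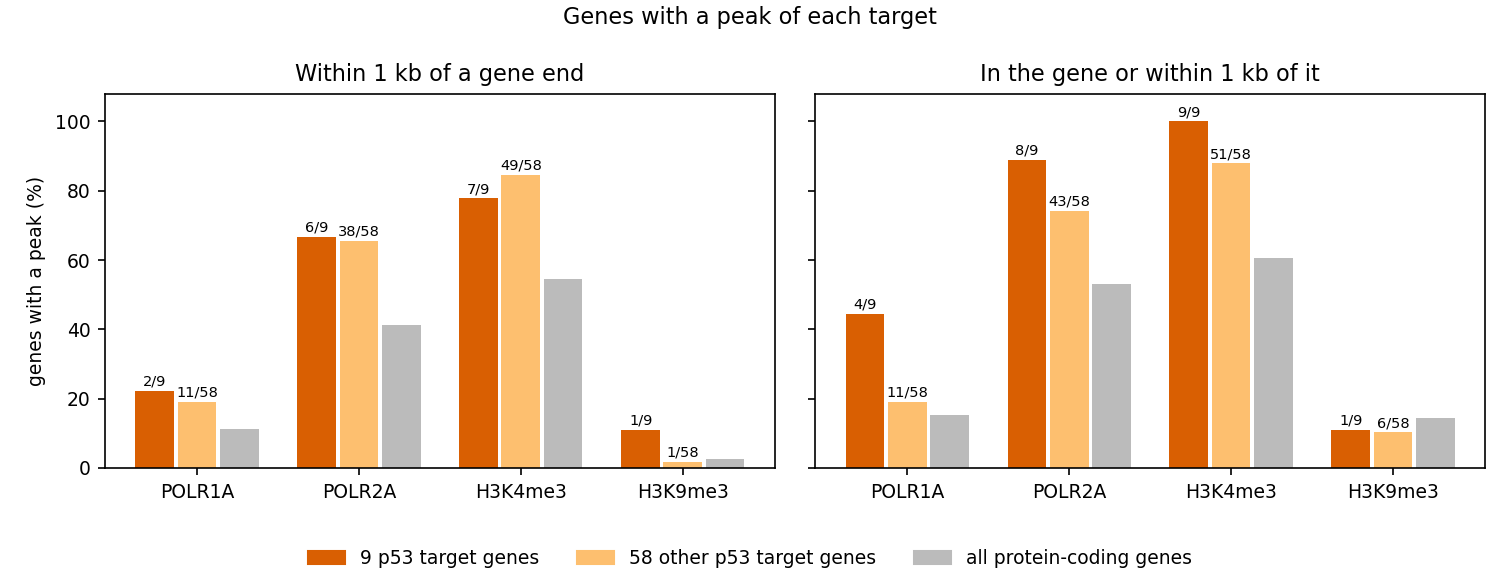
Percentage of genes with a peak of each target (vertical axis), within 1 kb of a gene end (left) or in the gene and 1 kb around it (right). Bars are the 9 p53 target genes, 58 other p53 target genes and all protein-coding genes, with counts above the gene lists. POLR2A at a gene end stood at 6 of 9, 38 of 58 and 41.3%.

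POLR1A presence was then set against the strength of POLR2A. The 10552 protein-coding genes with POLR2A in the gene or within 1 kb were split into 10 groups of near-equal size by their highest POLR2A value. POLR1A was present in 6.44% of genes in group 1, with the lowest POLR2A values, and in 66.9% in group 10. RRM2B and TP53I3, both with POLR1A, fell in group 10. RRM2B did so through the POLR2A peak that covers its upper end, and its POLR1A peak lies outside the annotated gene. TP53I3 did so through the POLR2A value of 16.1 at the starts of FAM228B and SF3B6, while the 9.93 at its own start lies in the range of group 7, where 31.3% had POLR1A. CDKN1A, without POLR1A, fell in group 8, where 39.4% had it, and MDM2 and SESN1, also without, in group 6, where 22.5% had it. SESN1 did so through the POLR2A peak that covers the CEP57L1 start. BBC3 and FAS had POLR1A in groups 4 and 3, where 14.3% and 10.1% of genes had it. BAX, in group 2 (9.38%), had none. With peaks within 1 kb of gene ends only, over 8192 genes, RRM2B was in group 10 (64.6% with POLR1A) and TP53I3 in group 9 (53.1%). CDKN1A, whose strongest POLR2A peak is not at an end, was then in group 1 (4.51%), so its place depends on which peaks are counted.

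**Figure D4:**
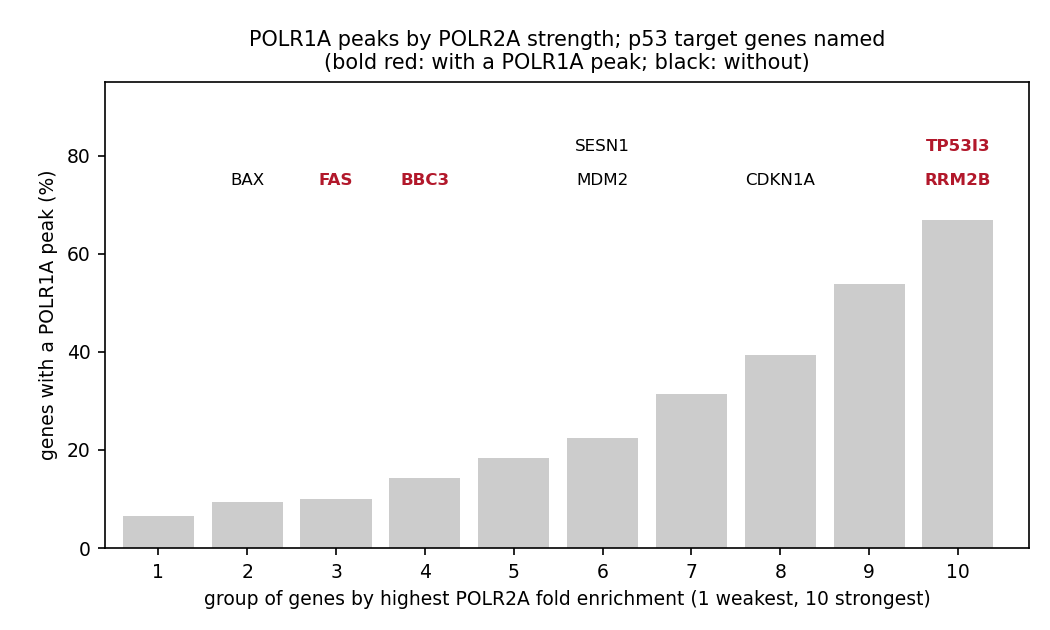
Percentage of protein-coding genes with a POLR1A peak (vertical axis) in 10 groups of near-equal size ordered by highest POLR2A fold enrichment (horizontal axis, group 1 the weakest). Gene names stand above the group they belong to, in bold red with a POLR1A peak and in black without. RRM2B and TP53I3, the second through the peak at the FAM228B and SF3B6 starts, are in group 10, where 66.9% of genes have POLR1A, and FAS is in group 3, where 10.1% have it.

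The promoter windows shared few of the motifs searched. The p53 decamer was searched on both strands as an exact match to its consensus, with no mismatch allowed. It was found in 6.23% of 22132 windows of protein-coding genes, and in 2 of the 15 windows of the 8 matched genes. These were ggacaagccc at FAS, 122 to 113 bp upstream of its innermost listed start, and ggacaagtct at SESN1, 49 to 40 bp upstream of the internal start at 109008988. Both lay under H3K4me3 peaks and outside polymerase peaks. The paired decamer, with up to 13 bases between, also had to match exactly. It was in 0 of 15 windows and in 4 of all 22132 (0.0181%). A match this rare could hardly occur among 15 windows, so the 0 does not show that paired sites are absent. Sites with a mismatch or outside the windows were not searched for. GGGCGG was in 13 of 15 windows, against 56.3%, and CCAAT in 9 of 15, against 34.6%. TATAAA was in the window of GDF15 alone, 29 to 24 bp upstream of the start, against 9.46% of all windows. The ETS core CCGGAAG was in 0 of 15 windows, against 12.8%. The NRF1 core GCATGCG was also in 0 of 15, against 4.63%, as was the CRE core TGACGTC, against 4.08%. Several windows of MDM2, FAS and SESN1 overlap or serve the same gene, and the windows are not independent.

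Base composition of the windows differed between the genes. GC content was 75% at the outer start of SESN1, 74.7% at that of MDM2, 74.3% at CDKN1A and 67.3% at BAX. The median over all windows was 62.3%. At internal starts GC content was 72.3% and 58% for SESN1 and 59.7% and 59.3% for MDM2. It was 63.0% at the outermost FAS start, 59.3% at GDF15, 54.3% at TP53I3 and 48.0% at BBC3. The windows of FAS and TP53I3, the genes with POLR1A at a listed start, thus lay near and below the median. The ratio of observed to expected CpG was 1.15 at BAX, higher than in 98.3% of windows, and 0.415 at TP53I3, 0.417 at GDF15 and 0.311 at BBC3, against a median of 0.738. RRM2B was not included in these comparisons.

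A list of 58 other p53 target genes, grouped by role, was counted in the same way. POLR1A was at an end of 11 of 58, against 11.2% of all protein-coding genes, and POLR2A at 38 of 58, against 41.3%. Of the 38 with POLR2A, 11 also had POLR1A (28.9%), against 26% of the 8192 protein-coding genes with POLR2A, so the shares were close once POLR2A was present. H3K4me3 was at 49 of 58, against 54.6%, and H3K9me3 at 1, RPA2, against 2.7%. The highest POLR1A values were 9.99 at FDXR, which encodes ferredoxin reductase, 8.61 at PPM1D, a phosphatase that dampens p53 signalling, and 8.42 at PLK3, a stress-responsive kinase. The median over the 11 genes was 5.56, against 6.08 over all protein-coding genes with POLR1A at an end. Of the 9 genes, RRM2B stood above all 11 with the 12.1 of the peak outside the annotated gene. TP53I3 did so with the 10.1 at the starts of FAM228B and SF3B6.

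By role, the counts at gene ends are to be read against 11.2% of all protein-coding genes for POLR1A and 41.3% for POLR2A. The shares were 54.6% for H3K4me3 and 2.7% for H3K9me3. POLR1A was at 2 of 8 genes of arrest and growth control, where POLR2A was at 6. They were PLK3 and SFN, which encodes 14-3-3 sigma (5.79). Of 5 feedback genes, PPM1D and CCNG1, a cyclin G gene (5.83), had POLR1A and 4 had POLR2A. Of 13 apoptosis genes 2 had POLR1A, namely PIDD1 (5.56) and APAF1, the apoptosome scaffold (4.50), and 6 had POLR2A. Of 6 DNA repair genes all had POLR2A and H3K4me3 and only RPA2, a subunit of the single-strand binding complex, had POLR1A (5.44), with H3K9me3 of 4.89 at the same gene. Of 14 genes of metabolism, redox and autophagy, FDXR and ISCU, an iron-sulfur scaffold gene (3.97), had POLR1A and 8 had POLR2A. TRAF4 (5.20) was among the 2 of 12 remaining genes with POLR1A. At gene ends, the highest POLR2A values without POLR1A were 16.3 at XPC, of nucleotide excision repair, 13.5 at the antiproliferative gene BTG1 and 12.8 at TIGAR, a fructose bisphosphatase.

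Likeness to RRM2B, which had the highest values of both polymerases, was measured over the 4 targets by the Euclidean distance between percentile ranks of the highest fold enrichment at a gene end. The nearest genes were TMBIM6 (distance 2.01, POLR1A 9.48, POLR2A 18.4), NUMB (distance 2.21, POLR1A 8.29, POLR2A 17.5) and DNM2 (distance 2.35, POLR1A 8.01, POLR2A 16.4). All had H3K4me3 between 12.2 and 12.4 and no H3K9me3 peak at an end, as had RRM2B. The POLR1A peak counted for RRM2B lies outside the annotated gene. With 4 values for a gene this distance describes a resemblance of peaks only.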

How the data were processed

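CUT&Tag peaks of POLR1A, POLR2A, H3K4me3 and H3K9me3 in HCT116 cells were used as 4 deposited lists of 1 target each. The peak names carry macs2, per the file contents. Per the submitters' processing notes, tools included STAR, SAMtools 1.6 and deepTools 3.1.1, with no role given, and the build is named both GRCh38 and hg38. Caller settings, the control, pooling of replicates and read depth: not given in the sources used here. Fold enrichment is the authors' ratio, −log10 q is as the authors deposited it, and the deposited score column was not used. The lowest −log10 q was just above 1 in each list.

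Genes, ends and promoter windows came from RefSeq GRCh38.p14 tables with 59792 genes. Genes on scaffolds were left out. A result on a neighbouring gene is not reported here. A peak was at a gene end if any base lay within 1 kb of it. Strand came from the promoter table, which covered 15812 protein-coding genes. Named genes were all 9 members, the 10 of the other list with the highest POLR1A value, the 3 with the highest POLR2A value without POLR1A, neighbours under a peak and the 3 genes most like RRM2B. The members and lists were chosen with earlier results of these data known. The window scan was tested on simulated data. Alternatives were other windows, a −log10 q of at least 5, lists of equal length, summits, overlap and the 5′ end. Work used Python 3.11.15, pandas 2.3.3 and numpy 2.4.6. Figures were drawn with matplotlib 3.10.9.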

Additional observations from a re-analysis of the deposited data

How the results depend on the processing

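No paired analysis was possible because each target has 1 peak list and none separates replicates, and for the same reason no replicate could be left out. With lists cut to 3812 peaks by fold enrichment, POLR2A was at the ends of 2 of the 9 genes (17.3% of all), H3K4me3 at 2 (17.8%) and H3K9me3 at 0 (0.656%). POLR2A was then at 17 of the 58 other target genes, against the same 17.3%. With only peaks whose −log10 q reached 5, H3K9me3 was at 0 of 9 (0.59% of all) and POLR1A at 4 of the 58 other genes (5.36% of all). RRM2B and TP53I3 still had POLR1A. With the 5′ end only, in the 8 genes whose strand was known, POLR1A was at 1 gene, TP53I3, against 11.2% of protein-coding genes in this setting. That count was near the share of all genes. Both polymerases were also at 1 of the 8, again near the share of all genes, and H3K9me3 was at 0. Around listed starts, an alternative chosen after seeing the data, H3K9me3 was at 0 of 8, against 2.35%. The other 40 of 50 combinations of result and setting stayed within 1.5 times the reported count. Among them, POLR2A was at the ends of 4 of 9 genes with a −log10 q of at least 5, against 33.1% of all. The end peaks of BAX (−log10 q 3.78) and CDKN1A (2.13 and 2.53) were lost there. The POLR1A peaks of FAS and BBC3 had a −log10 q of 1.77 and 2.97 and rest on the deposited threshold. Depth is unknown, so absence of a peak is no measure of absence of the protein.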

Other observations

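The BAX window printed above holds CACGTG, an E-box, at 4 places, between 138 and 9 bp upstream of the start, all under the POLR2A peak. The motif was searched after that window had been seen. It was in 2 of the 15 windows of the 8 matched genes, 1 each at BAX and BBC3, against 8.34% of 22132 windows of protein-coding genes.

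The summits of 3 POLR1A, 7 POLR2A and 12 H3K4me3 peaks lay inside the 9 gene bodies, which span 280.8 kb together. That is 1.07, 2.49 and 4.27 summits for each 100 kb, against 0.132, 0.818 and 0.996 over all protein-coding gene bodies, and H3K9me3 had 0 against 0.387. A density for each 100 kb depends on gene length, which was not matched between the 9 genes and all genes. The POLR1A density rests on 3 summits. The densities were not tested.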
